A study of Mus musculus with 1528 samples.

Results

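The genes described here are 9 transcripts of the integrated stress response and its ATF4-linked programme: *Atf4*, *Ddit3*, *Trib3*, *Chac1*, *Asns*, *Ddit4*, *Slc7a5*, *Slc7a11* and *Sqstm1*. They were taken by name, each matched to 1 Ensembl identifier, from a table of 55421 genes. Their levels in bone marrow–derived macrophages (BMDMs), the share of cells that held them and their co-expression across single cells were compared between macrophages given IL4+IL13 and macrophages given IL4+IL13+TNF.

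In the integrated stress response, kinases that sense amino acid shortage, unfolded protein in the endoplasmic reticulum (ER), viral RNA or haem shortage phosphorylate the initiation factor eIF2. General translation then slows while the *Atf4* mRNA is translated more, so the level of that mRNA is not a measure of ATF4 protein. ATF4 binds CCAAT/enhancer-binding protein–ATF response elements, called CARE or amino acid response elements, and raises genes of amino acid synthesis and uptake, tRNA charging and redox defence, together with the factors *Ddit3* (CHOP) and *Trib3* that feed back on the response. In macrophages the same genes are read out during infection, amino acid shortage and oxidative stress, and *Slc7a11* and *Sqstm1* are also targets of the oxidative stress factor NRF2.

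BMDMs of 2 wild-type C57BL/6 mice (male C57BL/6J in the methods of the study), grown from marrow with M-CSF, received IL4+IL13 for 24 h, alone or together with TNF (IL4+IL13+TNF), at 10 ng/ml of every cytokine. Live single cells were sorted into 4 plates of 384 wells. Mouse 1 filled plates 2 and 3, mouse 2 filled plates 4 and 5, and on every plate IL4+IL13 filled rows A to H and IL4+IL13+TNF rows I to P, so that treatment and the position on the plate cannot be told apart. The age of the mice is not given in the sources used here. The mouse is the replicate (n = 2), and a difference between the mice cannot be told apart from one between their plates or between the independent experiments in which the study ran them, and unstimulated cells were not analysed here. Full-length cDNA was sequenced from every well (Smart-seq2), without molecular identifiers, so PCR copies were counted and the intervals given for shares reflect only the error of counting.

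The promoters of 4 members are shown because their 300-base windows, from 250 bases before to 50 bases after the RefSeq transcript start (GRCm38.p6), held the CARE core TGATGNAA, searched on both strands. They are printed 5′ to 3′ on the strand of the gene, with the matched bases in capitals. The *Trib3* window is chr2:152344011-152344310, minus strand. The *Chac1* window is chr2:119350992-119351291, plus strand. The *Asns* window is chr6:7693160-7693459, minus strand, and that of *Slc7a11* is chr3:50443564-50443863, minus strand.
Trib3: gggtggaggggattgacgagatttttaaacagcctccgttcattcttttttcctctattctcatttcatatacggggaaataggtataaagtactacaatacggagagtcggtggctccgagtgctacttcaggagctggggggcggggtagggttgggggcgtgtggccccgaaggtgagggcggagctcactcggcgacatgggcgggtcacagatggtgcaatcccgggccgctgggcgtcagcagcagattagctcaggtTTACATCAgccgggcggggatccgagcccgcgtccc
Chac1: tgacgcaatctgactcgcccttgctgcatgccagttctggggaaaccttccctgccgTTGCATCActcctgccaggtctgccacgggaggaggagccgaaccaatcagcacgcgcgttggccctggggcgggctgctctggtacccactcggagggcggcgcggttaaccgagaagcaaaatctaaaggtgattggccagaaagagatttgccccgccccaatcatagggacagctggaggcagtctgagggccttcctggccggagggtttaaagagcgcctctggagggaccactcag
Asns: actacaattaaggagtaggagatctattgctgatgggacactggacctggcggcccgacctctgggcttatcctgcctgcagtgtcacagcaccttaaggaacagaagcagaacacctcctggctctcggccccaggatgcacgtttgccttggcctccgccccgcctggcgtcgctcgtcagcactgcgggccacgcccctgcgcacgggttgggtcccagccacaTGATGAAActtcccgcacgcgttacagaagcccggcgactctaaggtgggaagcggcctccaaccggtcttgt
Slc7a11: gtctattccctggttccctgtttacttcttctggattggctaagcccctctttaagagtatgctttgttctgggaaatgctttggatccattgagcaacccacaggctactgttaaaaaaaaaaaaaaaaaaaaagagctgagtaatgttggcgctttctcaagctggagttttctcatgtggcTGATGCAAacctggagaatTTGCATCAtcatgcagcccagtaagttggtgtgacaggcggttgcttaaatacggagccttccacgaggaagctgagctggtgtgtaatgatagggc

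The match began at position +15 in *Trib3*, where the transcript start is +1, at −193 in *Chac1*, at −23 in *Asns* and at −66 and −47 in *Slc7a11*, whose copies face opposite ways. The *Trib3* match lies before the start of that gene in Ensembl 98, which is the annotation behind the counts. The core was present in 3.97% of all 32851 RefSeq promoters of this length and in 4 of the 8 members with a window. It was not in these windows of *Atf4*, *Ddit3*, *Ddit4* or *Sqstm1*, and *Slc7a5* had no entry. The antioxidant response element core TGACNNNGC, to which NRF2 binds, was in 12.4% of all windows and in 1 member, *Asns*, at −172. These are matches of letters, and binding was not measured here.

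After wells of low quality were left out, 1386 of 1524 cells remained, namely 357 and 333 cells without TNF and 347 and 349 cells with TNF in mouse 1 and mouse 2. Fragments per kept cell had a median of 477871 without TNF and 464673 with TNF and ran from 200235 to 6122892. The cells carried the markers of macrophages: the summed level of the 8 markers was 15182 to 16748 CPM (fragments of a gene scaled to 1e6 fragments of the sample) without TNF and 27314 to 28500 CPM with TNF. Most of that sum was *Lyz2*, which rose with the mouse as a block. The median log2 fold change of the list was −0.20, 6 of the 8 markers were lower in both mice, and *Fcgr1* and *Mertk* fell with the block. Of the markers of neutrophils, T and NK cells, B cells, mast cells and basophils, fibroblasts and erythroid cells, 4 of 29 passed the filter on low counts, and none of these lists summed to more than 5.36 CPM. Among the dendritic cell markers *Ccr7* was at 0.110 and 0.433 CPM without TNF and 21.4 and 195 CPM with it. *Flt3* was at 7.21 and 6.68 CPM and then 7.53 and 7.17 CPM. *Zbtb46* was at 0.325 and 3.01 CPM and then 1.45 and 6.72 CPM, and *Xcr1* did not pass the filter.

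In the sums scaled by TMM all 9 members were higher with TNF in both mice. For 6 of them both summed samples with TNF lay above both without it. Of all 17034 genes tested, 34.3% were higher in both mice and 18.6% had groups apart in that direction. These counts depend on the scaling. As mean CPM per cell without it, *Atf4* went from 258.7 to 258.1 CPM in mouse 1. *Slc7a5* went from 6.52 to 6.33 CPM and *Ddit4* from 0.568 to 0.542 CPM there. By that measure the groups of *Atf4* and *Slc7a5* overlapped. *Trib3*, *Slc7a11* and *Sqstm1* had the largest differences relative to their standard error (SE). No member passed the threshold of 0.05 in the edgeR quasi-likelihood test on 2 against 2 sums with treatment as its only term, which called 1 gene, higher with TNF (0.00587% of those tested). At an unadjusted p under 0.05, 4 members were higher, as were 3.68% of all genes. With the mouse as a block the 3 named genes passed, where 1.94% of genes were called higher and 1.88% lower, and DESeq2 called the same 3, where 1.79% of genes were called higher. The median log2 fold change was 0.65 over the 9 members and 0.00 over all genes.

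**Figure D1:**
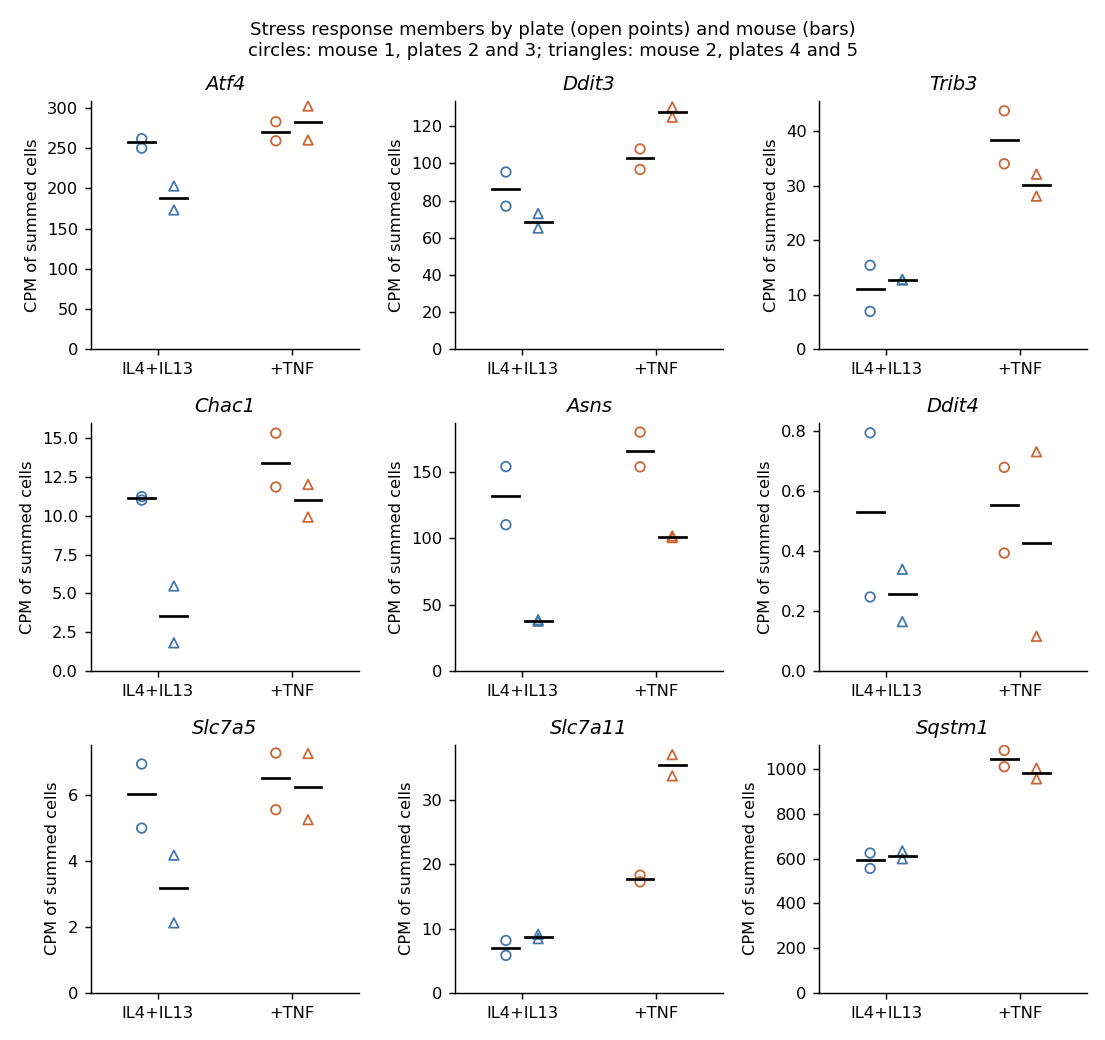
Level of each member in CPM of the summed cells (vertical axes, linear from 0), blue for IL4+IL13 and orange for IL4+IL13+TNF. Open points are plates, circles for mouse 1 and triangles for mouse 2, and black bars are the sum of each mouse. For *Ddit3*, *Trib3*, *Slc7a11* and *Sqstm1* all 4 plates with TNF lie above all 4 without it, and for *Asns* and *Chac1* the low point is mouse 2 with IL4+IL13.

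*Trib3* encodes a pseudokinase that restrains AKT and ATF4 and is itself raised by ATF4 and CHOP. Its summed level was 11.1 and 12.7 CPM without TNF and 38.4 and 30.1 CPM with TNF, each given for mouse 1 and then mouse 2 as in all that follows. The groups did not overlap, and within plates the log2 fold change was 1.12 to 2.22, higher on 4 of 4 plates. The edgeR log2 fold change was 1.53 (SE 0.24, adjusted p = 0.210), and with the mouse as a block 1.52 (SE 0.19, adjusted p = 0.0240). Over the 11 alternatives the adjusted p ran from 1.01e-05 to 0.492.

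*Slc7a11*, the cystine importer xCT that supplies cysteine for glutathione, was at 6.99 and 8.70 CPM without TNF and at 17.7 and 35.4 CPM with it. All samples with TNF were higher, and mouse 2 stood above mouse 1 among them, with 33.7 to 37.0 CPM on its plates against 17.3 to 18.3 CPM on those of mouse 1. The edgeR log2 fold change was 1.76 (SE 0.40, adjusted p = 0.347), and with the mouse as a block 1.68 (SE 0.23, adjusted p = 0.0276). The adjusted p ran from 0.000906 to 0.801 over the alternatives, and the difference between the mice in the size of the change was not tested.

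*Sqstm1* encodes p62, an autophagy receptor that also binds the NRF2 inhibitor KEAP1. It was the highest of the 9 members, at 592 and 612 CPM without TNF and 1045 and 981 CPM with it. The plates ranged from 556 to 634 CPM without TNF and from 957 to 1083 CPM with it, so the groups were apart on every plate. The edgeR log2 fold change was 0.75 (SE 0.14, adjusted p = 0.254), and with the mouse as a block 0.75 (SE 0.09, adjusted p = 0.0193), with a range of 0.0193 to 0.869 over the alternatives. Of its exon bases 17.3% overlap those of *Mrnip* on the other strand, and the count did not use the strand.

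Neither transcription factor passed the test. *Atf4* was at 257 and 188 CPM without TNF and at 270 and 282 CPM with TNF. The log2 fold change was 0.31 (SE 0.21, adjusted p = 0.811 by edgeR). Mouse 1 differed little, with 250 and 262 CPM on its plates without TNF and 283 and 259 CPM with it, while both plates of mouse 2 were higher with TNF. *Ddit3*, whose product CHOP is a factor of prolonged ER stress, was at 86.4 and 68.5 CPM without TNF and 103 and 128 CPM with it. Its log2 fold change was 0.58 (SE 0.22, adjusted p = 0.591 by edgeR) and was above 0 on 4 of 4 plates, from 0.02 to 0.93. With the mouse as a block the adjusted p was 0.286 for *Atf4* and 0.151 for *Ddit3*. Of the exon bases of *Ddit3*, 10.9% are shared with *Mars*, *Gm4189* or a second *Ddit3* entry, and fragments there may be missing from its count.

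Among the genes of amino acid supply, the level without TNF differed between the mice as much as between treatments. *Asns*, which makes asparagine from aspartate and glutamine, was at 132 CPM in mouse 1 and 37.9 CPM in mouse 2 without TNF, and at 166 and 101 CPM with TNF. *Chac1*, an enzyme that degrades glutathione, was at 11.2 and 3.52 CPM without TNF and 13.4 and 10.99 CPM with it. *Slc7a5*, the large neutral amino acid transporter LAT1, was at 6.02 and 3.19 CPM without TNF and 6.53 and 6.25 CPM with it. The groups overlapped for *Asns* and *Chac1* and were narrowly apart for *Slc7a5* in these scaled sums, though not in its mean CPM per cell. Their log2 fold changes were 0.65 (SE 0.62), 0.73 (SE 0.57) and 0.47 (SE 0.40), with adjusted p of 0.893, 0.855 and 0.872 by edgeR. When the IL4+IL13 sum of mouse 2 was left out these values dropped to 0.02, 0.13 and 0.09, and when that of mouse 1 was left out they became 1.81, 1.79 and 1.00. Such fits leave a mouse unpaired and mix the difference between the mice into that between treatments. Within mouse 1 the log2 fold changes (CPM with 0.5 added) were 0.33, 0.25 and 0.11, and within mouse 2 they were 1.41, 1.51 and 0.87. With the mouse as a block edgeR gave 0.87 (SE 0.27), 0.95 (SE 0.37) and 0.54 (SE 0.30). The adjusted p of these blocked fits were 0.148, 0.230 and 0.379. *Ddit4*, an inhibitor of mTORC1 also known as REDD1, was close to absent, at 0.528 and 0.255 CPM without TNF and 0.553 and 0.428 CPM with it, and was higher on 2 of 4 plates.

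The contrast between the mice without TNF was not the same for every member. Mouse 1 exceeded mouse 2 by 1.79 for *Asns*, 1.54 for *Chac1*, 0.82 for *Slc7a5*, 0.45 for *Atf4* and 0.33 for *Ddit3* on the log2 scale of CPM with 0.5 added, whereas *Trib3*, *Slc7a11* and *Sqstm1* lay at or below 0 (−0.18, −0.30 and −0.05). With TNF the excess of mouse 1 was 0.71 for *Asns*, 0.28 for *Chac1*, 0.06 for *Slc7a5* and −0.06 for *Atf4*. The amino acid and one-carbon synthesis genes and the cytosolic tRNA synthetases were also higher in mouse 1: it was higher in 9 of 10 and in 19 of 20 of them without TNF, by medians of 1.07 and 0.66, and in 8 of 10 and 17 of 20 with TNF, by medians of 0.50 and 0.47. The contrast was not limited to these lists: mouse 1 was higher in 10 of 10 cell cycle genes without TNF and 9 of 10 with it, by a median of 0.79 each time, and in 15 of 21 and 13 of 21 ER genes, by medians of 0.35 and 0.19. Over all genes the median difference between the mice was 0.00 without TNF and −0.01 with it.

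Divided by the summed exon length of each gene, the mean levels without TNF were 179 CPM per kb for *Sqstm1*, 94.4 for *Atf4*, 45.2 for *Ddit3*, 31.1 for *Asns*, 5.603 for *Trib3*, 4.49 for *Chac1*, 1.24 for *Slc7a5*, 0.563 for *Slc7a11* and 0.223 for *Ddit4*. With TNF they were 302, 117, 67.5, 48.8, 16.1, 7.45, 1.72, 1.91 and 0.280 CPM per kb in the same order of genes, so *Slc7a11* and *Slc7a5* changed places. The mice overlapped between *Ddit3* and *Asns* under both treatments, between *Trib3* and *Chac1* without TNF, and between *Slc7a11* and *Slc7a5* with TNF. The other neighbours in the order were apart in both mice.

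The wider pathway was read from 13 lists of genes. The 20 cytosolic tRNA synthetases charge tRNAs, and several of them, not all, are known ATF4 targets. Their median log2 fold change was 0.33, 16 were higher in both mice and 2 lower in both, and none was called. *Yars* was at 51.8 and 27.0 CPM without TNF and 70.8 and 48.2 CPM with it, and *Wars* at 43.5 and 34.2 CPM and then 62.2 and 49.1 CPM. The 10 tested genes of amino acid and one-carbon synthesis had a median of 0.36, with 6 higher and 1 lower in both mice. *Mthfd2*, the mitochondrial one-carbon enzyme, was at 115 and 53.4 CPM without TNF and at 174 and 120 CPM with it (log2 fold change 0.81, adjusted p = 0.735 by edgeR and 0.057 with the mouse as a block), while *Psat1* of serine synthesis was at 83.0 and 27.9 CPM and then 63.2 and 23.3 CPM. The 5 tested amino acid transporters had a median of 0.40, with 3 higher and 1 lower in both mice. The lower one, *Slc38a2*, was at 309 and 357 CPM without TNF and 231 and 313 CPM with it. *Slc3a2*, the heavy chain that pairs with both *Slc7a5* and *Slc7a11*, was at 286 and 220 CPM without TNF and at 374 and 294 CPM with it.

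Of the 11 tested ATF4-linked factors and feedback genes, 7 were higher and 1 lower in both mice, with a median of 0.31 and none called. *Nupr1*, a small stress-raised nuclear protein, was at 76.6 and 71.2 CPM and then 107 and 113 CPM, and *Ppp1r15a*, the GADD34 subunit that directs phosphatase to eIF2, at 43.0 and 27.2 CPM and then 60.4 and 53.9 CPM. The eIF2 kinases and eIF2 machinery stood at a median of −0.04, with 5 higher and 4 lower in both mice. *Eif2b3*, a subunit of the exchange factor eIF2B, was at 13.98 and 6.45 CPM and then 25.1 and 14.9 CPM, and *Oma1*, a mitochondrial protease, at 20.9 and 15.8 CPM and then 24.3 and 26.1 CPM. *Eif2ak2*, the kinase PKR, was at 60.3 and 59.7 CPM and then 38.5 and 53.0 CPM. In the ER unfolded protein response list the median was 0.05, with 10 higher and 5 lower of 21. *Calr*, an ER chaperone, was at 445 and 360 CPM and then 591 and 490 CPM, whereas *Edem1*, of ER-associated degradation, was at 245 and 310 CPM and then 175 and 206 CPM. None of the genes of these lists was called in the edgeR fit with or without the block.

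**Figure D2:**
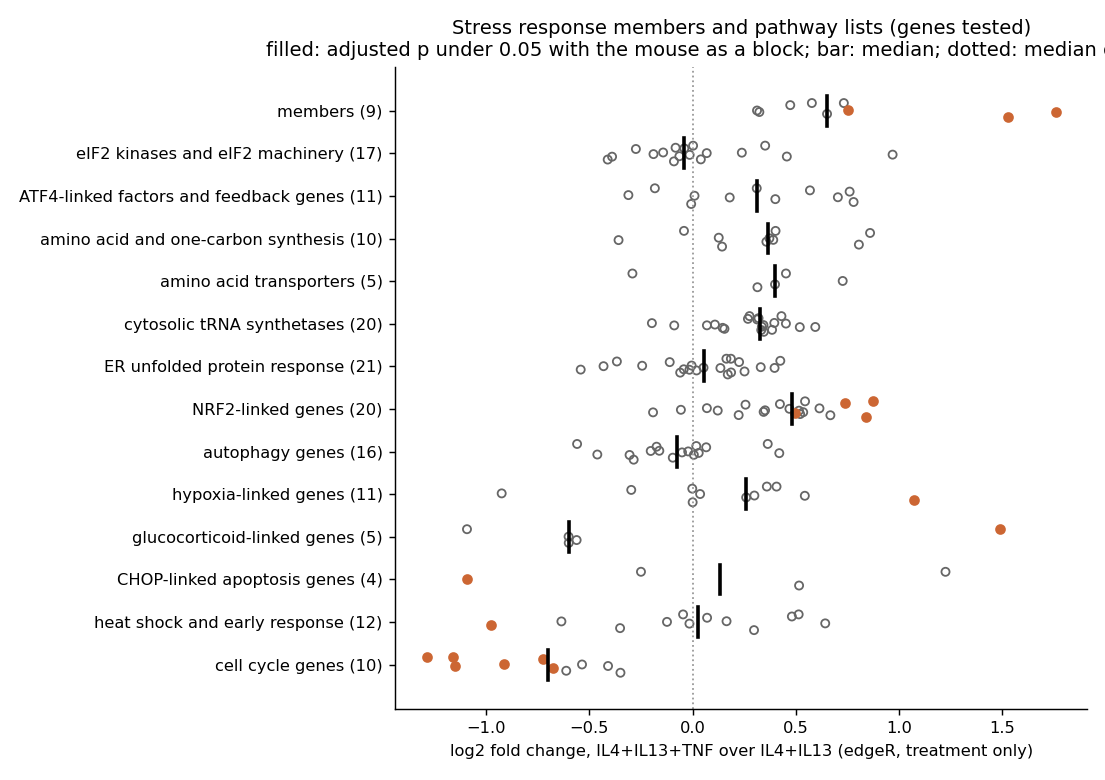
Log2 fold change of IL4+IL13+TNF over IL4+IL13 (horizontal axis, edgeR with treatment as the only term) for the 9 members and the genes tested in 13 pathway lists (rows). Each point is a gene, filled where it passed an adjusted p of 0.05 with the mouse as a block, the black bar is the median of the row and the dotted line the median of all genes. The members have a median of 0.65, the NRF2-linked genes of 0.48 and the cell cycle genes of −0.70.

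The NRF2-linked genes, to which *Slc7a11* and *Sqstm1* also belong by known function, had a median of 0.48 over 20 genes, and 17 were higher in both mice. With the mouse as a block 4 rose, against 1.94% of all genes: *Gclm*, the modifier subunit of glutathione synthesis, *Txnrd1*, thioredoxin reductase, *Blvrb*, biliverdin reductase B, and the ferritin heavy chain *Fth1*. *Gclm* went from 53.0 and 71.3 CPM to 87.2 and 141 CPM, higher in mouse 2, as was *Slc7a11*. *Txnrd1* went from 56.6 and 48.8 CPM to 93.2 and 95.4 CPM. Autophagy genes, to which *Sqstm1* could also be counted, had a median of −0.07 with 3 higher and 6 lower in both mice, so *Sqstm1* lay above every gene of that list, of which *Atg5* had the highest value at 0.42.

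Other stress lists were mixed. In the hypoxia-linked list *Slc2a1*, the glucose transporter GLUT1, rose with the block from 33.9 and 27.2 CPM to 79.7 and 48.8 CPM, while *Ndrg1* was at 45.3 and 50.6 CPM and then 31.0 and 19.5 CPM. Of the glucocorticoid-linked genes (*Ddit4* is also a known glucocorticoid target), *Sgk1* rose with the block from 72.0 and 120 CPM to 242 and 298 CPM, and *Tsc22d3* was at 142 and 123 CPM and then 91.7 and 83.3 CPM. The 4 apoptosis genes linked to CHOP had a median log2 fold change of 0.13, with 1 higher and 2 lower in both mice. *Bcl2l11*, which encodes the death protein BIM, fell with the block from 56.4 and 102 CPM to 23.9 and 50.1 CPM. *Pmaip1* was at 7.77 and 5.06 CPM and then 11.2 and 18.8 CPM (log2 fold change 1.22), and was not called. Of the heat shock and early response genes *Ier2* fell with the block. All 10 cell cycle genes had a log2 fold change under 0, and 6 fell with the block, *Mki67* from 126 and 111 CPM to 47.7 and 49.3 CPM.

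To set the members against single cells, every cell was thinned to 339000 fragments, which kept 332 and 309 cells without TNF and 303 and 306 cells with TNF. *Slc7a11* was found in 34.9% and 31.4% of cells without TNF and in 47.5% and 44.8% with it, a difference of 12.98 percentage points ± 0.562 (SD, n = 2 mice). *Trib3* was found in 23.8% and 14.2% and then in 33.0% and 25.8% of cells, a difference of 10.4 ± 1.68. *Asns* was found in 78.3% and 52.1% and then in 88.4% and 67.3%, a difference of 12.7 ± 3.59, with groups that overlapped between the mice. The difference was 8.02 ± 7.13 for *Ddit3*, 3.44 ± 0.385 for *Slc7a5* and 2.88 ± 0.614 for *Ddit4*, whose groups all overlapped between the mice too. The value of *Ddit4* turned to −0.449 without the cell filter. For *Chac1* the mice went opposite ways, from 21.4% to 17.8% in mouse 1 and from 6.47% to 13.7% in mouse 2. *Atf4* was in 93.9% to 99.01% and *Sqstm1* in 99.7% to 100% of cells of every group. An exact permutation of the 4 samples cannot give a p under 0.3333, and one within the 2 pairs cannot give a p under 0.5. No cell type that lacks these genes was among the labelled samples, and the share due to free RNA or to neighbouring wells was not measured here.

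A stricter definition of a positive cell, 5 or more fragments at equal depth, gave 5.72% and 6.80% for *Slc7a11* without TNF and 19.8% and 23.5% with it. For *Trib3* it gave 13.6% and 7.44%, then 27.1% and 16.01%, and for *Asns* 63.0% and 23.9%, then 71.9% and 48.0%. *Ddit4* was at 0.602% and 0.647% without TNF and 0.330% and 0.327% with it, so nearly all of its positive cells held fewer than 5 fragments.

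**Figure D3:**
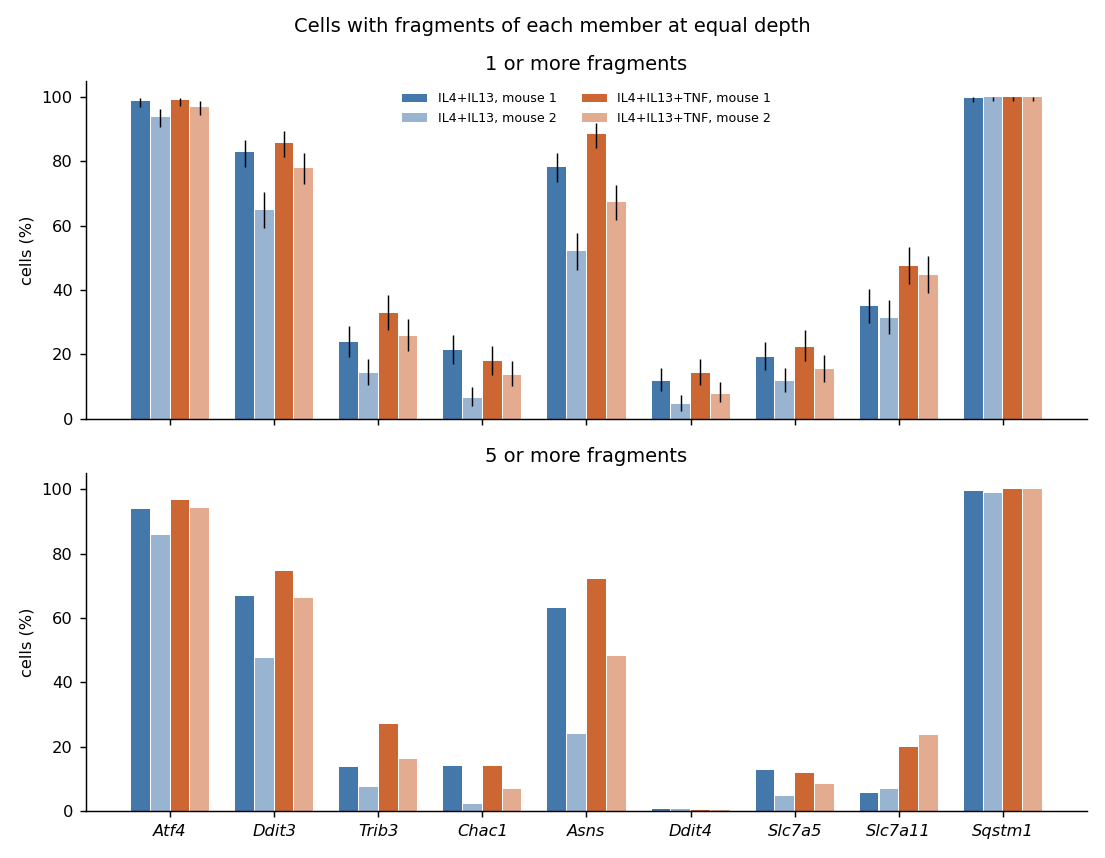
Share of cells (vertical axes, percent) with 1 or more (upper) and 5 or more (lower) fragments of each member after thinning to 339000 fragments per cell, with a bar for each mouse and treatment and, above, exact 95% intervals. *Slc7a11* is the member whose share with 5 or more fragments differs most in proportion, from 5.72% and 6.80% to 19.8% and 23.5%.

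The level within positive cells was also compared. Cells with a *Slc7a11* fragment held a mean of 17.4 and 27.9 CPM without TNF and 39.5 and 83.8 CPM with it, so both the share of cells and the level per positive cell were higher. For *Trib3* the mean in positive cells was 49.9 and 102 CPM and then 109 and 107 CPM, and for *Asns* it was 179 and 75.4 CPM and then 178 and 137 CPM. In mouse 1 the higher *Asns* sum therefore lay with more positive cells, and in mouse 2 with more positive cells and a higher level in them. *Sqstm1*, present in nearly all cells, had a median per cell of 534 and 544 CPM without TNF and 747 and 734 CPM with it, and a 90th percentile of 1051 and 1185 CPM and then 1806 and 1798 CPM.

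Members differed in how unevenly they were spread over cells. Of the summed CPM per cell, the top 5% of cells held 15.97% to 19.3% for *Atf4* and 14.3% to 23.8% for *Sqstm1* over the 4 groups, 25.4% to 38.4% for *Ddit3* and 21.3% to 42.7% for *Asns*. For *Trib3* they held 60.4% to 93.2%, for *Slc7a11* 58.0% to 84.4%, for *Slc7a5* 63.9% to 94.5% and for *Chac1* 65.0% to 98.8%. A gene found in few cells has a high value by this measure. *Chac1* reached 98.8% in mouse 2 without TNF, where 7.81% of cells held a fragment before thinning. The part of low detection in these differences was not tested. The highest cell reached 749 CPM of *Trib3*, 1017 CPM of *Slc7a11* and 1682 CPM of *Ddit3*, in each case with TNF. *Trib3* was above 100 CPM in 3.08% and 4.50% of cells without TNF and in 8.36% and 8.02% with it, and *Slc7a11* in 2.52% and 3.003% and then 4.32% and 9.17%.

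Across single cells the members were weakly correlated, with higher values with TNF in both mice. The median Spearman rho of the 36 pairs of members was 0.10 and 0.08 without TNF and 0.18 and 0.20 with TNF. Within plates it was 0.04 to 0.15 without TNF and 0.15 to 0.21 with it. On plate 2 the value was 0.15 under both treatments. The rho was higher with TNF on the mean of the mice in 29 of 36 pairs, and in 21 pairs both mice with TNF lay above both without it. The points are cells that share a plate and a depth, and no p is given. The shares of cells with a fragment were also higher with TNF, and the part of those shares in the rank correlation was not tested.

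The strongest pairs over the 4 groups were *Trib3* with *Slc7a5* (mean rho 0.29, range 0.22 to 0.35), *Atf4* with *Asns* (0.28, 0.17 to 0.38), *Asns* with *Slc7a5* (0.27, 0.17 to 0.32) and *Trib3* with *Asns* (0.27, 0.13 to 0.39). *Atf4* with *Trib3* went from 0.15 and 0.05 without TNF to 0.32 and 0.38 with it. *Atf4* with *Ddit3* went from 0.19 and 0.08 to 0.32 and 0.31, and *Atf4* with *Sqstm1* from 0.10 and 0.03 to 0.24 in both mice. Pairs with *Slc7a11* or *Ddit4* had lower medians than the rest. These 15 pairs had medians of 0.03 and 0.04 without TNF and 0.01 and 0.07 with it. The 21 pairs of the other 7 members had 0.15 and 0.09, then 0.32 and 0.25. *Ddit4* was found in only 4.53% to 14.2% of cells, and the part of this in its low rho was not tested. This grouping of pairs was chosen after the values were seen. *Slc7a11*, the member with the largest log2 fold change, had a rho with *Atf4* of 0.04 and 0.05 with TNF.

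**Figure D4:**
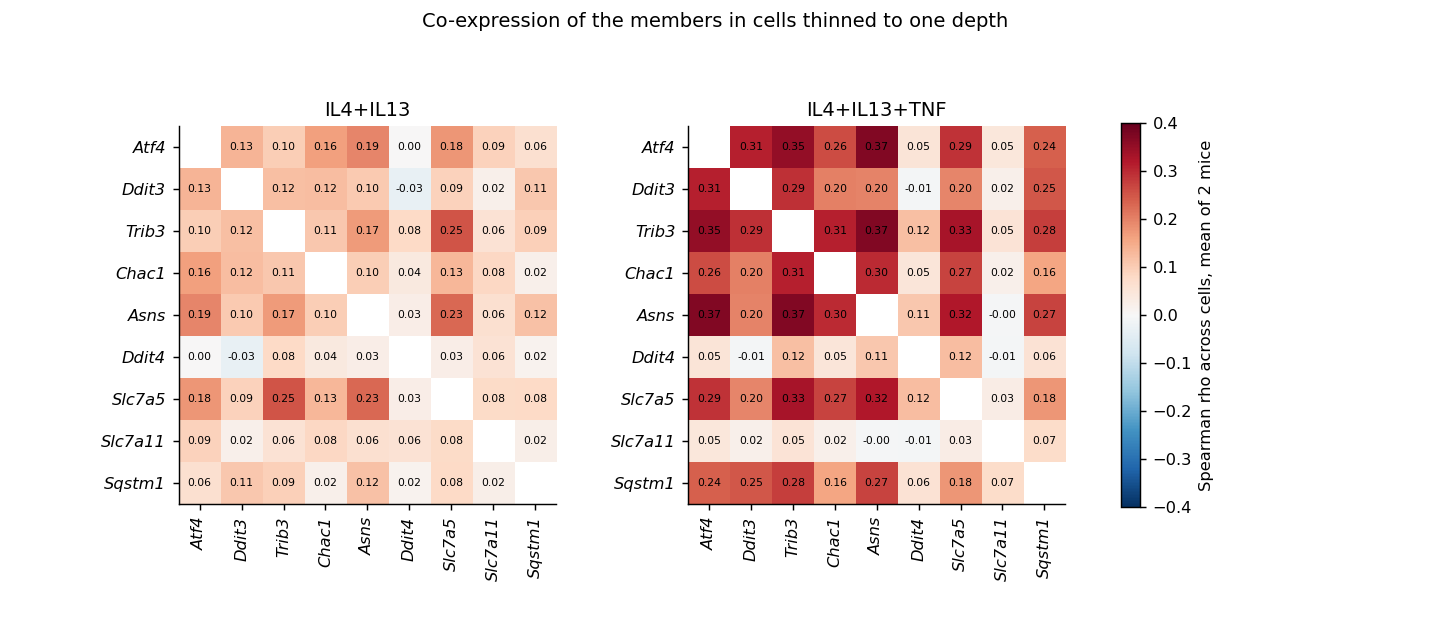
Spearman rho between members across cells thinned to 339000 fragments (colour and printed value, mean of the 2 mice), with IL4+IL13 on the left and IL4+IL13+TNF on the right. The block of *Atf4*, *Ddit3*, *Trib3*, *Chac1*, *Asns*, *Slc7a5* and *Sqstm1* is darker on the right. The rows of *Slc7a11* and *Ddit4* run from −0.03 to 0.09 on the left and from −0.01 to 0.12 on the right.

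Shared membership was then counted in the cells with the highest levels. Of the top 10% of cells for *Trib3*, 17.6% and 15.9% were also among the top 10% for *Atf4* without TNF and 45.2% and 48.4% with TNF. For *Sqstm1* the share of those cells was 14.7% and 18.2% and then 58.1% and 48.4%, and for *Ddit3* 26.5% and 22.7% and then 51.6% and 48.4%. Overlaps with *Slc7a11* did not follow this: of the top cells for *Atf4*, 23.5% and 32.3% were also top cells for *Slc7a11* without TNF and 9.68% and 12.9% with it, and of those for *Trib3* 26.5% and 15.9% and then 22.6% and 19.4%. Because of ties at 2 fragments, the top sets of *Slc7a11* without TNF held 16.3% and 12.6% of cells. With TNF they held 10.6% and 10.1%, so the overlap expected of unrelated sets was also lower with TNF. In mouse 2 without TNF only 14.2% of cells held any *Trib3* fragment, and those 44 cells were taken as the top set, while the top sets of *Chac1* and *Ddit4* there were the 6.47% and 4.53% of cells with any fragment. Cells in the top set of 3 or more members made up 11.1% and 8.09% of cells without TNF and 12.9% and 12.4% with it, and by plate 7.48% to 12.7% and then 10.3% to 16.4%, which overlap. Cells in 5 or more top sets were few, 7 and 3 cells (2.11% and 0.971%) without TNF and 14 and 12 cells (4.62% and 3.92%) with it, and the most top sets that a cell was in was 7 and 5 without TNF and 9 and 8 with it. By plate the shares in 5 or more were 0.602% to 3.61% without TNF and 3.73% to 5.14% with it. At the other end 43.1% and 45.3% of cells without TNF and 50.8% and 53.3% with it were in no top set.

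Cells with and without a *Trib3* fragment were then compared for the members found in most cells. With TNF the median *Atf4* level was 311 against 189 CPM in mouse 1 and 404 against 177 CPM in mouse 2. Without TNF it was 251 against 215 CPM and 139 against 145 CPM. The median *Asns* level with TNF was 224 against 61.9 CPM in mouse 1 and 94.4 against 2.95 CPM, the value of 1 fragment, in mouse 2. That of *Asns* without TNF was 168 against 53.1 CPM in mouse 1 and 4.42 against 2.95 CPM in mouse 2. For cells with and without a *Slc7a11* fragment the median *Atf4* level with TNF was 230 against 227 CPM and 233 against 227 CPM, and *Asns* 94.4 CPM on both sides in mouse 1 and 11.8 against 8.85 CPM in mouse 2. Without TNF *Atf4* was at 230 against 223 CPM in mouse 1 and 195 against 127 CPM in mouse 2, and *Asns* at 103 against 70.8 CPM in mouse 1 and at 2.95 against 0 CPM in mouse 2.

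To ask which other genes followed the members, a score was made for every cell as the mean of the z-scored log2(CPM + 1) of the 9 members, within each mouse and treatment, and correlated with 9002 other genes found in at least 25% of cells of every group. The median rho over all these genes was 0.03. The 10 genes with the highest mean rho were *Mthfd2* (0.39), *Gm9347* (0.38), *Phgdh* (0.37), *Sars* (0.35), *Gm7901* (0.34), *Slc3a2* (0.33), *Aars* (0.33), *Shmt2* (0.32), *Psph* (0.31) and *Nars* (0.31). They are enzymes of serine synthesis (*Phgdh*, *Psph*) and of mitochondrial folate metabolism (*Mthfd2*, *Shmt2*), synthetases for seryl, alanyl and asparaginyl tRNA (*Sars*, *Aars*, *Nars*) and the transporter heavy chain *Slc3a2*. *Gm9347* and *Gm7901* are processed pseudogenes in GENCODE M21 whose transcripts match that of *Phgdh* at 97.4% of 1608 and 98.7% of 1597 aligned bases, so their counts cannot be separated with confidence from those of *Phgdh*.

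Whole lists followed the score to unequal degrees. Among the 100 genes with the highest rho were 12 of 20 tRNA synthetases (median rho of the list 0.18) and 6 of 7 genes of amino acid and one-carbon synthesis that were found in enough cells (0.31). There were also 4 of 8 ATF4-linked factors (*Nupr1*, *Gdf15*, *Eif4ebp1* and *Atf5*; 0.17), 2 of 4 transporters (0.21) and 4 of 20 ER genes (*Herpud1*, *Hspa5*, *Pdia6* and *Pdia4*; 0.11). The cell cycle list had 1 of 9 (*Mki67*; 0.12), with all 9 above 0. The NRF2-linked list had 2 of 18 (*Gclm* and *Prdx1*; 0.09). The autophagy list had 0 of 16 (0.02) and the hypoxia-linked list 0 of 10 (0.01), and the 6 macrophage markers had a median of −0.11. The number of genes detected at equal depth also went with the score (mean rho 0.30, range 0.23 to 0.36), as did a lower mitochondrial share (−0.16, −0.33 to −0.04), and their part in these correlations was not tested. The total of fragments before thinning did not go with it in one direction (0.02, −0.10 to 0.10).

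**Figure D5:**
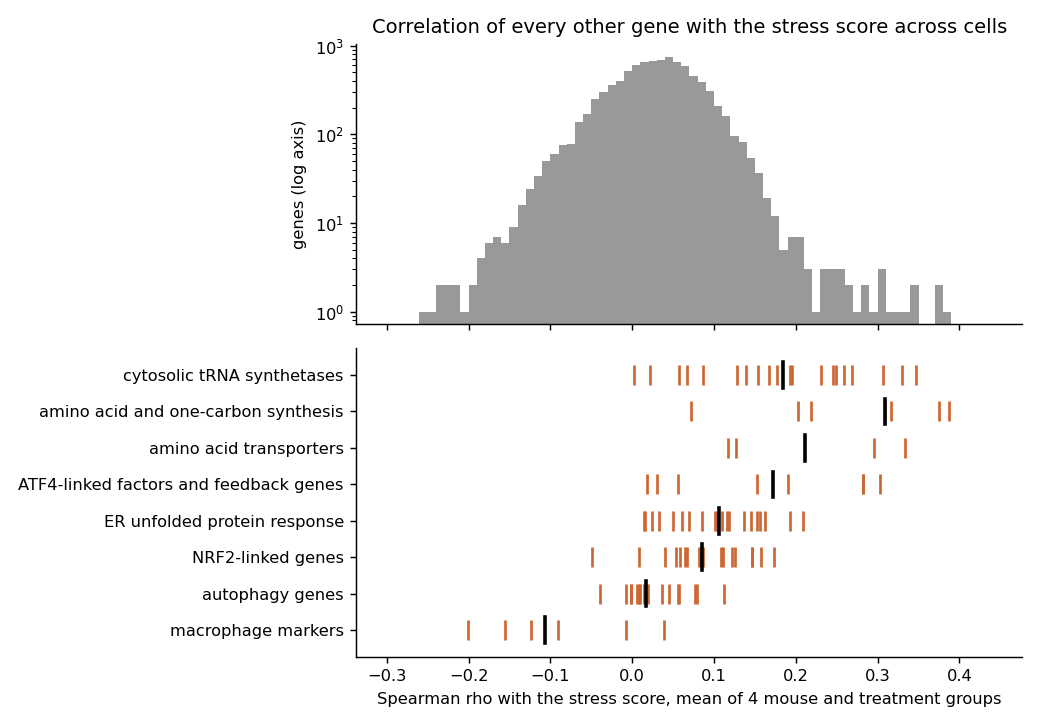
Upper panel, number of genes (log axis) by mean Spearman rho with the stress score across cells, for 9002 genes that are no member. Lower panel, the genes of 8 lists as orange ticks with the median as a black bar. Amino acid synthesis, transport and tRNA synthetase genes lie at the upper end, autophagy genes near the median of all genes (0.03), and macrophage markers below it (−0.11).

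The nearest gene of each member was then found. The gene outside the 9 with the highest mean rho was *Aars* for *Atf4* (0.30), *Nupr1* for *Ddit3* (0.20), *Phgdh* for *Asns* (0.41) and for *Slc7a5* (0.28), *Gm9347* for *Trib3* (0.25) and *Gdf15*, a secreted stress cytokine, for *Chac1* (0.22). For *Sqstm1* it was *Ninj1*, which acts in the rupture of the plasma membrane (0.24), for *Ddit4* the phosphate transporter *Slc34a2* (0.21, range 0.03 to 0.37) and for *Slc7a11* it was *Glipr1* (0.15). *Asns* ranked at place 1 of the 9007 genes compared with *Trib3*, at place 2 with *Slc7a5*, at 3 with *Atf4* and at 5 with *Chac1* and *Sqstm1*, but at 2429 with *Slc7a11*. *Atf4* ranked at place 1 with *Ddit3*, 9 with *Trib3*, 7 with *Slc7a5* and 406 with *Slc7a11*.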

How the data were processed

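Single BMDMs were profiled by Smart-seq2. The authors deposited 1 table of fragment counts per gene and well. Per the paper and the labels, they had aligned fragments to mm10 by gsnap and assigned the uniquely mapped ones to Ensembl 98 genes with featureCounts 1.6.3, without use of the strand, and a fragment that lies over 2 genes counts for neither. The counts are not normalized. The 92 spike-in rows were left out of totals, and 8 columns whose names fit no sample label (4 begin with NC and 4 with RNA) were set aside.

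Wells were left out by a limit of 3 median absolute deviations from the median of their plate (1386 of 1524 kept). The limit was a lower one for the log of total fragments and of detected genes, and an upper one for mitochondrial and spike-in share. Sums of counts over the cells of each mouse under each treatment entered edgeR 4.0.16 (glmQLFTest, TMM, Benjamini-Hochberg adjustment, threshold 0.05, treatment as the only term) in R 4.3.3 on 17034 genes found in at least 5% of cells of either treatment that pass filterByExpr. CPM are of these sums, scaled by TMM. Alternatives were a replicate block for the mouse, a DESeq2 1.42.0 fit, library size scaling, no gene filter, limma 3.58.1 on log2(mean CPM + 1), 2 other cell filters and each sum left out. The labels number 2 separate mice in both treatments, and samples with the same number share plates, so the number was taken to pair them: deviations from the treatment means correlated with r = 0.581 over 17034 genes.

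Shares and rank correlations used cells thinned to 339000 fragments (the 10th percentile, 1250 cells), with exact Clopper-Pearson 95% intervals, in Python 3.11.15 with scipy 1.17.1. Promoters came from RefSeq (GRCm38.p6), with a window for 8 of the 9 members.

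The members and lists were chosen with earlier results of these data known. Named are every member, of each list at most 4 genes with the largest absolute log2 fold change with the same sign in both mice and at least 5 CPM, the 10 genes that correlated best with the score, the nearest gene of each member, and all list genes called with the block or among the 100 best correlated where they are counted. The last of these, and the grouping of pairs by *Slc7a11* and *Ddit4*, were chosen after their values were seen.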

Additional observations from a re-analysis of the deposited data

How the results depend on the processing

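With the mouse as a replicate block 651 genes were called in place of 1, and 3 members and 14 genes of the pathway lists in place of 0. DESeq2 called 598 genes, 3 members and 8 list genes. With 1 of the 4 sums left out, with the lone sum taken to vary as the other pair does, the edgeR count was 4 to 30 genes, with 0 members and 0 list genes called. With library size scaling, no gene filter, mean CPM with limma and the other cell filters it was 1 gene and 0 members. No member was called lower under any of the 11 alternatives. The log2 fold change of *Ddit4* turned to −0.10 without the IL4+IL13 sum of mouse 2, with a range of −0.10 to 0.94 over the sums left out. The other 8 members kept a value above 0 under all 11.

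The median rho of the 36 pairs, averaged over the 4 groups, was 0.14. It was 0.058 without the 5% of cells with the highest score, which removes cells by the measure itself, 0.12 to 0.16 with 1 group left out, and between 0.138 and 0.154 under the other 5 alternatives. These averages mix both treatments, so they cannot show whether the higher rho with TNF depends on the settings. The difference in the share of *Ddit4*-positive cells turned to −0.296 percentage points at 5 or more fragments and −0.449 without a cell filter.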

Other observations

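4 samples are labelled IL4+IL13 with no mouse number and were not assigned to a group, and 3 of them have a column in the table, with 87198, 279461 and 354874 fragments. The names of these columns end in P03, a well of row P, among the rows that IL4+IL13+TNF filled. Whether they held single cells is not given by these names. In the well of 279461 fragments *Atf4* was at 326 CPM, *Sqstm1* at 447 CPM, *Slc7a11* at 132 CPM and *Ddit3* at 57.3 CPM. In the well of 354874 fragments *Atf4* was at 293 CPM, *Sqstm1* at 544 CPM and *Slc7a11* at 2.82 CPM. In the well of 87198 fragments *Atf4* was at 711 CPM, *Sqstm1* at 264 CPM and *Trib3* at 115 CPM. No member exceeded its highest value in an IL4+IL13 cell of the 2 mice in any of these wells.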
